A study of Mus musculus with 13 samples.

Results

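Genes of transcellular calcium transport and calcium buffering were examined in cultured mouse prostate progenitor/stem cells given 1,25-dihydroxyvitamin D3 (1,25D), the hormonal form of vitamin D. The set named 9 genes: the entry channels Trpv5 and Trpv6, the buffers S100g and Calb1, the plasma membrane pumps Atp2b1 and Atp2b4, the endoplasmic reticulum pump Atp2a2, the sodium-calcium exchanger Slc8a1 and the calcium-sensing receptor Casr. Members were found by gene symbol in the array platform's annotation, with no use of their signals. 8 of the 9 were measured, out of 18193 named genes, and they held 22 of 45037 probe sets; Trpv5 was not analysed here. Each gene was represented by its brightest probe set, judged by the mean of all 13 arrays, called the main probe set.

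The cells came from 10 wk old wild-type B1/6; 127/SVEV mice and were used at passage 22 and 70% confluency. Arrays fell into 4 groups, with 3 for vehicle and 3 for 1,25D at 6 h, and 3 for vehicle and 4 for 1,25D at 48 h. Vehicle was ethanol at 0.1%, and 1,25D (1,25(OH)2D3 in the labels) was given at 100 nM, once for the 6 h cultures and every 24 h for the 48 h cultures. All groups are thus 1 long-passaged culture system, and nothing in the labels tells if replicates were independent cultures, so p-values measure only the spread between these arrays. As bulk RNA was measured, fewer cells of a type and less RNA per cell cannot be told apart.

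The hormone acts through the vitamin D receptor, a nuclear receptor that binds DNA together with a retinoid X receptor. In the intestine and kidney it raises calcium uptake in 3 steps: entry through Trpv6 or Trpv5, transfer across the cytosol bound to S100g (calbindin-D9k) or Calb1 (calbindin-D28k), and extrusion by Atp2b1 and Slc8a1. Trpv6 is also expressed in prostate epithelium.

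The promoter windows of Trpv6 and S100g are shown here because, of the 8 windows listed for members, they were the 2 that held a hexamer of the type the vitamin D receptor binds. Each window runs from 250 bases before to 50 bases after the annotated start, 5′ to 3′ on the gene's strand, from RefSeq (GRCm38.p6), at chr6:41636356-41636655 on the minus strand for Trpv6 and chrX:162964550-162964849 on the minus strand for S100g. Capitals mark hexamers of the vitamin D receptor type (either AGGTCA or its variant AGTTCA, and likewise GGGTCA with its variant GGTTCA, on both strands, with overlaps allowed).
Trpv6: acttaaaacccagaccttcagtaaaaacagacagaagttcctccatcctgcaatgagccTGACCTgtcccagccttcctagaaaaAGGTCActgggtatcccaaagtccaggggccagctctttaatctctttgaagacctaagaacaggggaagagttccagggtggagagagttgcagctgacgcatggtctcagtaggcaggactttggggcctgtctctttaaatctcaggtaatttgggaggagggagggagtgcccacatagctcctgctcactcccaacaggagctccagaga
S100g: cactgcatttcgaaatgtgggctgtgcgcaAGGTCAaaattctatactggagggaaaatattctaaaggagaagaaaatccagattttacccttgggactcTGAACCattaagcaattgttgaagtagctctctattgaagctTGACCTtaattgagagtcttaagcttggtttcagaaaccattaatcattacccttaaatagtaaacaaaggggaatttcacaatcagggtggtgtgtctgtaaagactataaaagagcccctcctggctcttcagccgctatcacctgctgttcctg
The Trpv6 window held 2 hexamers and the S100g window held 3, at different spacings and strands. A direct repeat of 2 such hexamers separated by NNN, the classic receptor element known as DR3, was found in 0 of the 8 windows listed for 7 members (Trpv5, Trpv6, S100g, Atp2b1, Atp2b4, Slc8a1 and Casr; 2 windows for Atp2b1), and in 0.0396% of all 32851 windows of this length. At least 1 hexamer was present in 2 of the 8 windows and in 43.7% of all windows. These matches describe letters in a short window only; distant elements were not searched.

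The deposited signals are on a log2 scale, with array medians of 5.57 to 5.67. Times separated on the first principal component, which held 54.3% of the variance; how long the cells were cultured and when the arrays were processed cannot be told apart. Vehicle 6 h replicate 1 and 1,25D 48 h replicate 4 had narrower signal ranges than the rest (interquartile ranges of 3.03 and 2.95 against 3.27 to 3.46). Of the 13 member probe sets below the 50th percentile of all probe sets, these arrays gave the highest signal of their group in 6 and 8. Of the 9 above it, they gave the lowest signal of their group in 6 and 4. Some changes of Trpv6, S100g, Calb1 and Atp2b1 are also given without 1 or both of these arrays. The culture carried the epithelial markers Krt5, Krt14, Trp63, Krt8, Krt18, Epcam and Cdh1 at the 86.0 percentile of all probe sets or above. Pbsn, a secretory product of mature prostate, was at the 5.91 percentile. Of 32 measured markers of other cell types 10 lay above the 50th percentile. Among them were Vim, an intermediate filament of stroma that cultured epithelium can also carry (96.3), and Slc5a2 of kidney tubule (71.5). Others were Cd3e of T cells (67.1), Acta2 of smooth muscle (64.6), Cd68 of macrophages (63.9) and Pdgfrb of stroma (52.7). By list, the 10 were 3 of 7 for muscle, 2 of 8 for stroma, 2 of 4 for immune cells and 3 of 5 for kidney tubule and intestine. Ptprc of immune cells was at 15.9, Myh11 of muscle at 15.5 and Col1a1 of stroma at 25.2. A place above the 50th percentile does not by itself show that a cell type was present. Some markers moved with hormone: Krt19 rose at both times (log2 change 0.80 and 0.58, limma adjusted p = 0.00925 and 0.0324), and at 48 h Cd68 rose by 1.23 while Krt8 fell by 0.43 and Krt18 by 0.34 on the log2 scale (limma adjusted p = 0.000846, 0.000157 and 0.000503). Cyp24a1, the hydroxylase that starts 1,25D breakdown, rose with hormone by 8.50 at 6 h and 7.83 at 48 h on the log2 scale by limma (adjusted p = 3.29e-11 and 4.00e-11), with every treated array above every vehicle array. Its vehicle means of 4.53 and 4.56 are low enough to be partly background, so the size depends on the processing: over the alternatives it ran from 6.59 to 8.62 at 6 h and from 5.95 to 8.01 at 48 h.

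None of the measured calcium genes passed the test for a change with 1,25D at either time. In the limma fit over all probe sets, 0 of 8 main probe sets passed an adjusted p of 0.05 at 6 h, 0 of 8 at 48 h, and 0 of 8 for the difference between these responses, and 0 of 8 had an unadjusted p under 0.05 in each of the 3 comparisons. Among all 18193 genes 0.852% were called at 6 h, 2.39% at 48 h and 0.632% for the difference, so a count of 0 in 8 genes does not set this group apart. The lowest adjusted p among the members was 0.957 at 6 h and 1.00 at 48 h. Log2 changes ran from -0.18 to 0.36 at 6 h (median -0.03; all genes -0.02) and from -0.03 to 0.24 at 48 h (median 0.12; all genes -0.0024). The 95% intervals, which are not adjusted for the number of genes, reached from -0.63 to 0.81 at 6 h and from -0.39 to 0.76 at 48 h, the latter a range of 0.765-fold to 1.69-fold. These are the outermost bounds over the 8 genes; each gene's own interval is given with it or in the plot of intervals. Treated and vehicle arrays overlapped in 8 of 8 genes at both times. Among all genes they did not overlap in 10.2% at 6 h and 12.6% at 48 h. Beside such shares, overlap in all 8 genes does not set this group apart either.

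**Figure D1:**
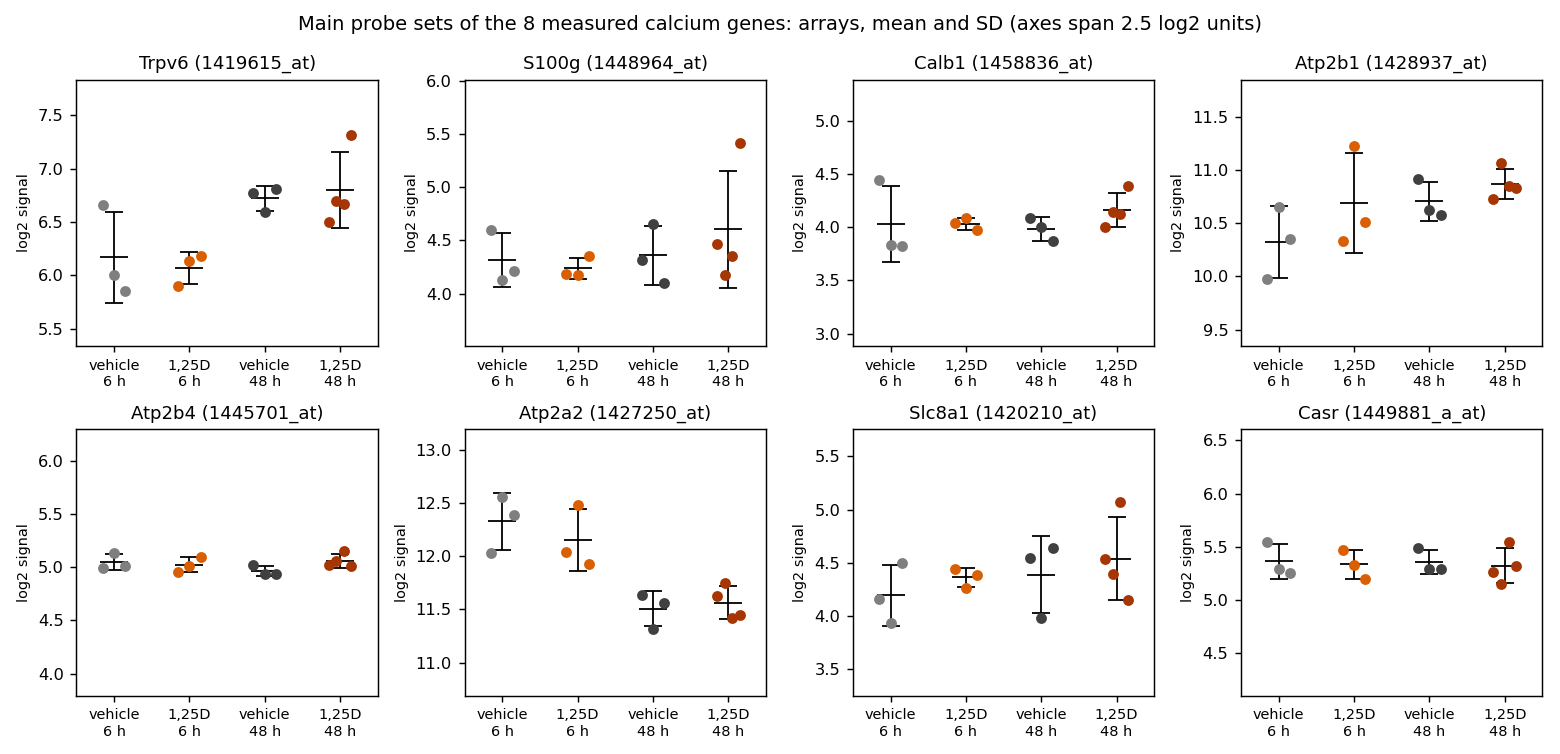
Log2 signal of the main probe set of each of the 8 measured calcium genes (y axis) in the 4 groups (x axis); points are arrays, the wide dash is the mean and bars are 1 SD (n = 3, 3, 3 and 4). Treated and vehicle points overlap at each time in every panel, while Atp2a2 lies lower at 48 h than at 6 h and the 48 h points of Trpv6 lie mostly above those at 6 h.

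Trpv6 forms a highly calcium-selective entry channel of the apical membrane. Its mean lay at the 62.7 percentile of all probe sets, below that of the T cell marker Cd3e (67.1). Detection calls were not used, so whether Trpv6 was expressed is not known, and a change could be understated. Its log2 signals were 6.66, 6.00 and 5.85 in vehicle and 5.90, 6.14 and 6.18 with 1,25D at 6 h. At 48 h they were 6.77, 6.59 and 6.81 in vehicle and 6.50, 6.70, 6.67 and 7.32 with 1,25D. Vehicle 6 h replicate 1 was the highest of its group and 1,25D 48 h replicate 4 the highest of all 13 arrays, and the treated and vehicle arrays overlapped at both times. The change with hormone was -0.10 at 6 h (SE 0.23, 95% interval -0.59 to 0.39, limma adjusted p = 0.973) and 0.08 at 48 h (SE 0.21, -0.39 to 0.54, limma adjusted p = 1.00). The upper bound at 48 h was a 1.45-fold rise. Without the 2 arrays of narrow range the changes were 0.14 and -0.10 (limma adjusted p = 0.774 and 0.875), that is, of the opposite sign and still not called.

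S100g encodes calbindin-D9k, the small EF-hand protein that carries calcium across the enterocyte. Its signals were low, with a mean at the 22.9 percentile of all probe sets, a range in which much of a signal can be background; detection calls were not used, so whether it was expressed is not known, and a change could be understated. The arrays read 4.60, 4.13 and 4.22 in vehicle and 4.18, 4.18 and 4.35 with 1,25D at 6 h. At 48 h they read 4.32, 4.66 and 4.11 in vehicle and 4.47, 4.18, 4.35 and 5.41 with 1,25D. One treated array, 1,25D 48 h replicate 4, stood above the rest, and the other 3 lay within the vehicle range. The change was -0.08 at 6 h (SE 0.26, 95% interval -0.63 to 0.48) and 0.24 at 48 h (SE 0.24, -0.27 to 0.76), with limma adjusted p of 0.981 and 1.00. Without 1,25D 48 h replicate 4 the 48 h change was -0.03.

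Calb1 encodes calbindin-D28k, the larger buffer of the distal nephron and of neurons. Its 4 probe sets lay between the 0.4 and 14.1 percentiles of all probe sets, and all their signals fell between 3.28 and 4.44. The main probe set averaged 4.03 ± 0.36 (SD, n = 3) in vehicle and 4.03 ± 0.057 (SD, n = 3) with 1,25D at 6 h, and 3.98 ± 0.11 (SD, n = 3) and 4.16 ± 0.16 (SD, n = 4) at 48 h. The vehicle 6 h spread came from replicate 1, at 4.44 against 3.83 and 3.82. The changes were -0.0030 (95% interval -0.32 to 0.31) and 0.18 (-0.12 to 0.47). Without vehicle 6 h replicate 1 the 6 h change was 0.20 and not called (limma adjusted p = 0.705). Another Calb1 probe set, 1448738_at, differed by -0.15 at 6 h with an unadjusted p of 0.0426 but an adjusted p of 0.814 in limma.

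Atp2b1, the widely expressed plasma membrane calcium pump that completes transcellular transport, was bright, with its 3 probe sets at the 84.7 to 95.1 percentiles. The main probe set read 9.97, 10.65 and 10.35 in vehicle and 10.33, 11.22 and 10.51 with 1,25D at 6 h. At 48 h it read 10.91, 10.62 and 10.58 in vehicle and 10.73, 11.06, 10.85 and 10.83 with 1,25D. Treated means were the higher ones at both times, within overlapping arrays. The change was 0.36 at 6 h (SE 0.21, 95% interval -0.09 to 0.81, limma adjusted p = 0.957) and 0.16 at 48 h (SE 0.20, -0.26 to 0.59, limma adjusted p = 1.00). Without vehicle 6 h replicate 1, the lowest of its group, the 6 h change was 0.18 (limma adjusted p = 0.968). The second probe set, 1428936_at, gave 0.10 and 0.22. The third, 1452969_at, gave 0.38 and 0.40, and its 48 h value had an unadjusted p of 0.0416 and an adjusted p of 0.663 in limma. All 3 probe sets were thus above vehicle in mean at both times, and 0 of these 6 values passed the test.

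Atp2b4, a related pump isoform measured by 1 probe set at the 38.2 percentile, had the narrowest range of the 8 main probe sets. All 13 signals lay between 4.93 and 5.15, and its 95% intervals were -0.24 to 0.19 at 6 h and -0.10 to 0.30 at 48 h. At this low signal a change could be understated, and a narrow interval need not bound it. Slc8a1, the exchanger that trades sodium for calcium at the plasma membrane, had 4 probe sets between the 2.7 and 22.5 percentiles. Its main probe set averaged 4.19 ± 0.28 and 4.36 ± 0.089 at 6 h (SD, n = 3 each) and 4.39 ± 0.36 (SD, n = 3) and 4.54 ± 0.39 (SD, n = 4) at 48 h, in vehicle and with 1,25D. The changes of 0.17 and 0.15 were smaller than the spread of the vehicle groups. Its other probe sets gave -0.22 and 0.0048 (1425817_a_at), -0.01 and 0.0029 (1437675_at) and 0.05 and 0.02 (1440201_at), none of them called. Casr, the receptor that senses extracellular calcium, had 2 probe sets at the 43.7 and 45.0 percentiles. Its main probe set changed by -0.03 at both times, with 95% intervals of -0.33 to 0.27 and -0.31 to 0.25. Detection calls were not used, so a change of Casr could also be understated, and these intervals need not bound it.

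**Figure D2:**
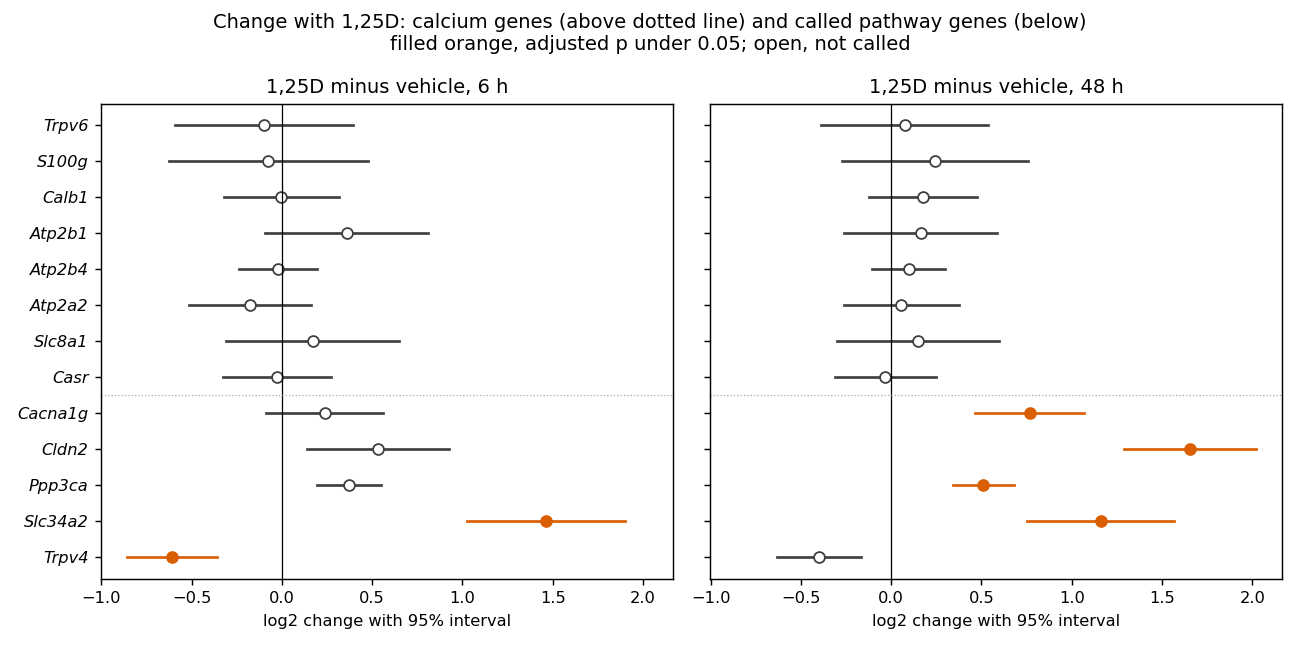
Log2 change with 1,25D (x axis) at 6 h (left) and 48 h (right) for the 8 calcium genes and for 5 called genes of the wider calcium pathway lists (y axis); points are limma estimates, lines 95% intervals, and filled orange points have an adjusted p under 0.05. Each calcium gene's interval spans 0 at both times, whereas Slc34a2 was at 1.46 and 1.16; Cyp24a1 (8.50 and 7.83) is off this scale and not drawn.

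Atp2a2 encodes SERCA2, the pump that returns cytosolic calcium to the endoplasmic reticulum. It had the brightest probe set of the members' 22, and it was lower in the 48 h cultures than in the 6 h cultures with and without hormone. Its main probe set, 1427250_at, read 12.03, 12.56 and 12.39 in vehicle and 12.04, 12.48 and 11.93 with 1,25D at 6 h. At 48 h it read 11.64, 11.32 and 11.56 in vehicle and 11.63, 11.75, 11.42 and 11.45 with 1,25D. Every 48 h array lay below every 6 h array, and the treated and vehicle arrays of each time overlapped.

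The change of Atp2a2 from 6 h to 48 h was -0.82 in vehicle (SE 0.16, 95% interval -1.16 to -0.48, limma adjusted p = 0.00299), a level 0.566 of that at 6 h. In 1,25D cultures, which share no array with the vehicle comparison, it was -0.59 (SE 0.15, -0.91 to -0.27, limma adjusted p = 0.0130). The difference between these time changes equals that between the hormone responses, 0.23, and was not called (limma adjusted p = 0.985). Without 1,25D 6 h replicate 2, the highest treated array, the fall in 1,25D cultures was -0.42 and was no longer called (limma adjusted p = 0.0784). With hormone the main Atp2a2 probe set changed by -0.18 at 6 h (SE 0.16, 95% interval -0.52 to 0.16) and 0.06 at 48 h (SE 0.15, -0.26 to 0.37).

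The other Atp2a2 probe sets differed in how far they followed this. A second one, 1416551_at, fell by 0.95 in vehicle and by 1.27 with 1,25D on the log2 scale (limma adjusted p = 0.00249 and 0.000110). 1427251_at and 1452363_a_at changed by -0.42 and -0.42 in vehicle without passing the test (limma adjusted p = 0.280 and 0.115) and fell by 0.83 and 0.61 with 1,25D (limma adjusted p = 0.00926 and 0.0101). 1437797_at changed by -0.30 and -0.13 and the dim 1443551_at, at the 4.2 percentile, by -0.02 and -0.07, none of them called. All 6 probe sets were lower in mean at 48 h in both series of cultures. With hormone their signs varied, and none of them was called. At 6 h and 48 h, 1416551_at changed by -0.02 and -0.34, 1427251_at by 0.34 and -0.07 and 1437797_at by 0.02 and 0.18. For 1443551_at the changes were 0.08 and 0.04, and for 1452363_a_at 0.16 and -0.03. The difference between the hormone responses was positive in 1437797_at, as in the main probe set, and negative in the rest. Which transcript forms each probe set reads was not examined. Cell type markers also differed between times. Of 12 measured epithelial markers, 5 rose and 0 fell in vehicle and 3 rose and 1 fell with 1,25D, with Krt19 up by 2.02 and 1.81 and Krt15 by 1.69 and 1.56 on the log2 scale (limma adjusted p = 3.56e-07, 3.46e-07, 0.000123 and 8.88e-05). Of 32 markers of other cell types, Cd68 rose (1.02 and 2.38, limma adjusted p = 0.00112 and 3.21e-07) and the neuronal tubulin Tubb3 fell (-1.57 and -1.33, limma adjusted p = 0.0343 and 0.0445) in both series, and Vim fell with 1,25D (-0.82, limma adjusted p = 0.000421). The 7 markers of smooth and cardiac muscle, tissues rich in this pump, were among the 32. By limma 0 of them were called and 0 had an unadjusted p under 0.05. The log2 of their summed linear signals was 8.23 to 8.96 in vehicle and 8.30 to 8.35 with 1,25D at 6 h. At 48 h it was 8.35 to 8.67 in vehicle and 8.24 to 8.79 with 1,25D. Such a sum leans on the brightest markers, here Acta2 first, and the 7 ran from the 15.5 to the 64.6 percentile. The part of these marker changes in the Atp2a2 result was not tested.

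**Figure D3:**
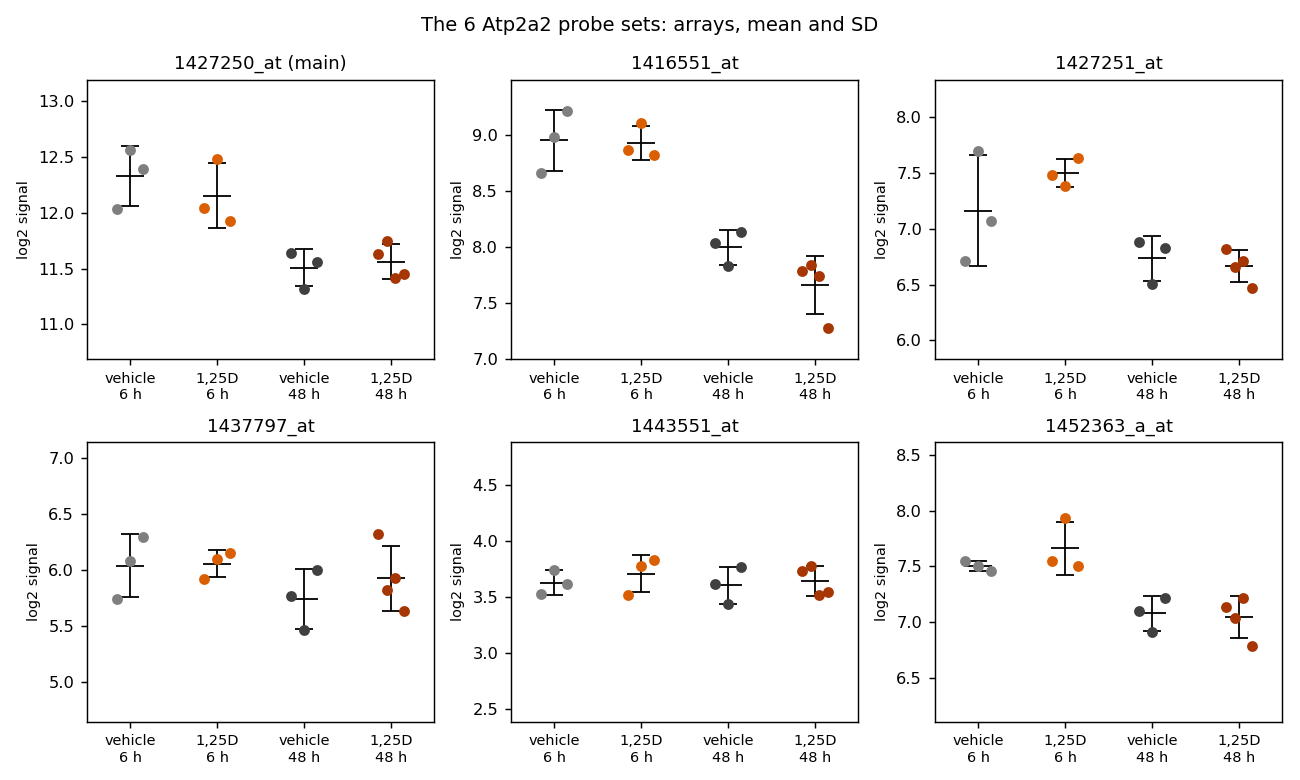
Log2 signal (y axis) of the 6 Atp2a2 probe sets in the 4 groups (x axis); points are arrays, the wide dash is the mean and bars are 1 SD (n = 3, 3, 3 and 4). The main probe set and 1416551_at lie lower at 48 h than at 6 h in every array, whereas 1443551_at is near the bottom of the signal range and nearly level.

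Trpv6 was the other member that differed between times. From 6 h to 48 h it changed by 0.55 in vehicle (SE 0.23, 95% interval 0.06 to 1.05, limma adjusted p = 0.166), which did not pass the test, and it rose by 0.73 in 1,25D cultures (SE 0.21, 0.27 to 1.19, limma adjusted p = 0.0319), a 1.66-fold difference. These 2 time changes differed by 0.18, which was not called (limma adjusted p = 0.985), so no effect of hormone on the time change was shown. In 1,25D cultures the 48 h arrays all lay above the 6 h arrays, while in vehicle cultures replicate 1 at 6 h, with 6.66, overlapped the 48 h range. Without that array the vehicle change was 0.80 (limma adjusted p = 0.0236), and without both arrays of narrow range the changes were 0.80 in vehicle and 0.56 with 1,25D (limma adjusted p = 0.00116 and 0.00506). The difference between the time changes was then -0.24 and not called (limma adjusted p = 0.693). Without 1,25D 48 h replicate 4 alone the change with 1,25D was 0.56 and not called (limma adjusted p = 0.0624). It was also not called there when any one of the 1,25D 6 h arrays, or 1,25D 48 h replicate 3, was left out (limma adjusted p up to 0.137 over all alternatives).

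The other 6 measured members were not called between times in either series of cultures. Of the main probe sets, 1 of 8 fell and 0 of 8 rose in vehicle, against 8.75% lower and 9.84% higher of all genes, and 1 fell and 1 rose with 1,25D, against 12.5% and 10.9%. These shares are near those of all genes. The 48 h arrays did not overlap the 6 h arrays in 1 member in vehicle and 2 with 1,25D, against 31% and 33.8% of all genes. S100g changed by 0.05 in vehicle and 0.36 with 1,25D, and Atp2b1 by 0.38 and 0.18, none of them called.

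Other genes of calcium handling and of the vitamin D axis were counted in 7 lists, with 120 of 134 listed genes measured. The lists were drawn from textbook knowledge with earlier results of these data known, so their counts are descriptive only. With 1,25D, 2 rose and 1 fell at 6 h (median log2 change -0.03; all genes -0.02), 5 rose and 0 fell at 48 h (median 0.02; all genes -0.0024), and 0 were called by limma for the difference between times, where 11 had an unadjusted p under 0.05. As shares of the 120 these counts stand beside the 0.852% and 2.39% of all genes called. The list of the calcium and vitamin D endocrine axis held most of them. Of its 19 measured genes, 2 rose and 0 fell at 6 h and 3 rose and 0 fell at 48 h; besides Cyp24a1 these were the sodium-phosphate cotransporter Slc34a2 and the claudin Cldn2. Cyp24a1 was on this list because it is the standard vitamin D target, so its rise adds nothing on calcium transport.

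Slc34a2 moves phosphate, not calcium, across epithelia of lung and intestine. Its signals were 7.24, 7.81 and 7.84 in vehicle and 8.91, 9.43 and 8.93 with 1,25D at 6 h. At 48 h they were 8.94, 9.29 and 9.48 in vehicle and 10.64, 10.17, 10.40 and 10.37 with 1,25D. The treated arrays lay above the vehicle arrays at both times, and vehicle cultures at 48 h (mean 9.24) lay near treated cultures at 6 h (mean 9.09). It rose by 1.46 at 6 h (SE 0.20, 2.76-fold, limma adjusted p = 0.00228) and by 1.16 at 48 h (SE 0.19, 2.23-fold, limma adjusted p = 0.00528), and by 1.61 with time in vehicle (limma adjusted p = 0.000115). Cldn2, which forms a paracellular pore for cations, read 5.74, 5.81 and 5.59 in vehicle and 7.48, 7.72, 7.11 and 7.16 with 1,25D at 48 h, a rise of 1.66 (SE 0.17, limma adjusted p = 9.3e-05). At 6 h its change was 0.53 (limma adjusted p = 0.513). Its mean lay at the 60.3 percentile of all probe sets, below that of Trpv6 (62.7), and its vehicle signals could be partly background. The size thus depends on the processing: over the alternatives the 48 h change of Cldn2 ran from 0.98 to 1.74. The Cldn2 responses differed between times by 1.13 (SE 0.25, limma adjusted p = 0.100), which was not called here but was called in 3 of 25 alternatives: with array weights, with the replicate number as a block and without the 2 arrays of narrow range (limma adjusted p = 0.0157, 0.0283 and 0.0353). The block also takes 1,25D 48 h replicate 4 out of the estimates, as no other array shares its number.

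Among 22 measured entry channels and their sensors, 0 rose and 1 fell at 6 h and 1 rose and 0 fell at 48 h. The one that fell was Trpv4, a calcium-permeable channel of the same family as Trpv6. It read 9.18, 9.47 and 9.51 in vehicle and 8.83, 8.74 and 8.77 with 1,25D at 6 h, a fall with no overlap of arrays (log2 change -0.61, SE 0.12, limma adjusted p = 0.0284). At 48 h its change was -0.40 (limma adjusted p = 0.132), again with every treated array below every vehicle array. This was called with array weights (limma adjusted p = 0.0115) and with the mean of all probe sets of a gene (limma adjusted p = 0.0353). In the latter the Trpv4 estimate was the same as in the main fit, so other probe sets added nothing to it. Its 6 h call was lost when any 1 of 10 arrays was left out (vehicle 6 h replicates 2 and 3, all 1,25D 6 h and vehicle 48 h arrays, and 1,25D 48 h replicates 1 and 3) (limma adjusted p up to 0.353 over all alternatives). The one that rose was Cacna1g, the pore of a T-type voltage-gated calcium channel, from 6.34, 6.34 and 6.44 in vehicle to 7.36, 6.86, 7.22 and 7.14 with 1,25D at 48 h (log2 change 0.77, SE 0.14, limma adjusted p = 0.0125). Cacna1g lost its call when vehicle 48 h replicate 1, vehicle 48 h replicate 2 or 1,25D 48 h replicate 3 was left out (limma adjusted p up to 0.0729). Its mean lay at the 60.8 percentile of all probe sets, so its signals too could be partly background. Over the alternatives its 48 h change ran from 0.48 to 0.86.

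Calcineurin and calmodulin kinase genes numbered 19 measured, with 0 called at 6 h by limma (1 at an unadjusted p under 0.05) and 1 higher at 48 h. This was Ppp3ca, the catalytic subunit of the calcium-activated phosphatase calcineurin, at 10.45, 10.44 and 10.58 in vehicle and 11.02, 11.03, 10.97 and 10.97 with 1,25D (log2 change 0.51, SE 0.08, limma adjusted p = 0.00312). The treated arrays differed from each other by less than their distance from vehicle. At 6 h Ppp3ca was at 0.37 with no overlap of arrays and was not called (limma adjusted p = 0.0830). It was called only when dim probe sets were left out, at the same estimate (limma adjusted p = 0.0487). With the mean of all probe sets of the gene the 6 h change was 0.15 (limma adjusted p = 0.949). By limma, no gene was called at 6 h or 48 h among the other pumps and exchangers (15 measured), the release channels and buffers of the endoplasmic reticulum (19), the calcium-binding proteins of the cytosol (14) or the mitochondrial calcium genes (12); of these 60 genes 2 had an unadjusted p under 0.05 at 6 h and 3 at 48 h.

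**Figure D4:**
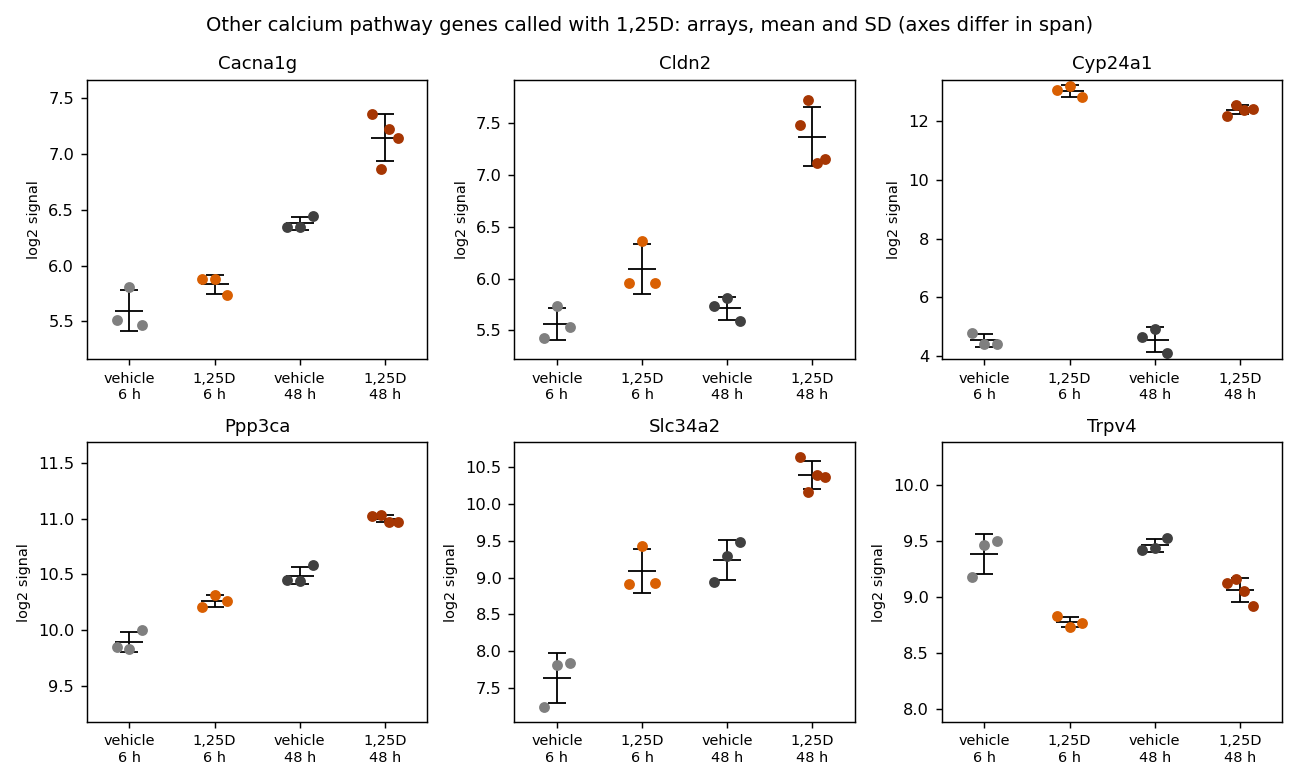
Log2 signal (y axis) of the 6 genes of the calcium pathway lists called with 1,25D at 6 h or 48 h, in the 4 groups (x axis); points are arrays, the wide dash is the mean and bars are 1 SD (n = 3, 3, 3 and 4). Cyp24a1 goes from a mean of 4.53 to 13.03 at 6 h, and Slc34a2 and Ppp3ca lie higher both with 1,25D and at 48 h.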

How the data were processed

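Values are the authors' deposited log2 array signals; the submitters' processing notes name MAS5 with no role, while how background and scaling were handled was not given in the sources used here. The table holds more probe sets than the array named in the design text; the annotation matching its probe sets named the genes, and 64 control probe sets were removed. limma 3.58.1 (R 4.3.3) fitted group means over all 13 arrays, with two-sided moderated tests (intensity trend) and Benjamini-Hochberg adjustment over 45037 probe sets; a gene was called at adjusted p under 0.05, and rose and fell refer to calls. The 1,25D 48 h against 6 h comparison was added after values were seen. Members, lists and tests were chosen with earlier results of these data known. All members were named, with other list genes called at 6 h, at 48 h or for the difference, at most 4 a list. No member was called with hormone, so genes of similar pattern were not sought. Replicate numbers were not used to pair arrays in the main fit. Deviations from group means correlated between -0.60 and 0.47 over 18 same-number pairs, which does not settle whether such arrays were paired. The limma fit was tested on simulated data, and summaries and plots were made with Python 3.11.15.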

Additional observations from a re-analysis of the deposited data

Results flagged for a closer look

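In the 1,25D 48 h group, the group of 4 arrays, replicate 4 stood apart from the other 3 in 2 of 28 probe sets examined for a distant array; chance alone gives about 1 in 20. The Atp2a2 probe set 1416551_at read 7.28 on that array against 7.74 to 7.84 on the others. The Calb1 probe set 1456934_at read 3.57 against 3.35 to 3.37, close to the bottom of the signal range. This array had the narrowest interquartile range of all 13, and its part in these values was not tested.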

How the results depend on the processing

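The members' counts at 6 h and 48 h stayed at 0 in all 26 alternatives each, and the count for the difference between responses in all 25 (these cover 4 of the 8 members where dim probe sets were left out, and 7 where probe sets that can match several transcripts were); signs of uncalled members changed in 20, 15 and 27 of 203, 203 and 195 values. Counts for time moved only through Trpv6 and Atp2a2. In vehicle the count went from 1 to 2 with array weights and without the 2 arrays of narrow range, and ranged from 1 to 2 when single arrays were left out. With 1,25D it went from 2 to 1 with quantile normalization and with the replicate number as a block, and ranged from 0 to 2 when single arrays were left out. The block moved no other member's call. Only 1,25D 48 h replicate 4 carries number 4, so the block also takes this array out of the estimates. The Trpv6 change from 6 h to 48 h with 1,25D was 0.56 both with the block and without that array. Numbers are shared by title only, 8 of 18 same-number pairs correlated above 0.1, and 3 of 13 arrays correlated best with their own number. Of the 13, 1,25D 48 h replicate 4 had no other array of its number. The highest correlation, 0.76, joined unlike numbers, vehicle 6 h replicate 1 and 1,25D 48 h replicate 4. Trpv4 at 6 h was also not called with median centring, with only the 2 groups compared or with the replicate block. The number of all genes called ranged from 68 to 248 at 6 h (155 in the fit used), from 260 to 1043 at 48 h (434) and from 66 to 262 for the difference (115). Signals in the dim 40% of probe sets limit what could be seen for S100g, Calb1, Slc8a1 and Atp2b4. Casr, at the 43.7 and 45.0 percentiles, lay only a little above that bound.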
